A study of Mus musculus with 2 samples.

Results

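The 5 genes of the angiopoietin and Tie receptor system described here were taken by symbol from the 31053 genes listed in both count matrices: the receptor genes Tek (which codes for Tie2) and Tie1, the phosphatase gene Ptprb (which codes for VE-PTP), and the ligand genes Angpt1 and Angpt2. All 5 had counts in both libraries. The study asked how lung pericytes take part in vascular remodeling in hypoxia, and its single-cell experiment held 1 library from mice in normoxia and 1 library from mice kept at 10% oxygen for 3 weeks, with no transgene, deletion or drug in either group. The mice were C57/B6 animals of 2 to 4 months. The study's methods name male mice for hypoxia work. Its text names 3 wild-type animals for the hypoxia arm of this experiment, gives no number for the normoxia library and does not say whether cells were pooled. Lung cells were depleted of CD45+ leukocytes and CD326+ epithelial cells on beads before capture, so shares of cell classes follow the depletion as well as the tissue.

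In the Tie system, angiopoietin-1 made by cells around the vessel binds Tie2 on the endothelial cell (EC) and activates it, which favours quiet, tight vessels. Angiopoietin-2 is stored and released by the EC itself, and acts mostly as a weak or opposing ligand that loosens vessels. Tie1 binds no angiopoietin directly but pairs with Tie2 and tunes its signal, and VE-PTP removes phosphate from Tie2 and keeps it in check.

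In the GENCODE annotation of GRCm38, Tek (ENSMUSG00000006386) lies at chr4:94739289-94874976 (plus strand, 23 exons in the principal transcript), and Tie1 (ENSMUSG00000033191) lies on the same chromosome at chr4:118471191-118490061 on the minus strand, also with 23 exons. Ptprb (ENSMUSG00000020154) lies at chr10:116275523-116389535 on the plus strand with 32 exons. Angpt2 (ENSMUSG00000031465) lies at chr8:18690263-18741562 and Angpt1 (ENSMUSG00000022309) at chr15:42424723-42676977, both on the minus strand and both with 9 exons. The upstream sequence of Tek is shown because this receptor differed most between EC subtypes together with Ptprb. It is RefSeq's sequence of the 250 bases before the start of Tek, chr4:94739039-94739288 on the plus strand of GRCm38.p6, with the core motif of the ETS family of endothelial transcription factors (GGAA, or TTCC on the other strand) in capitals.
Tek upstream: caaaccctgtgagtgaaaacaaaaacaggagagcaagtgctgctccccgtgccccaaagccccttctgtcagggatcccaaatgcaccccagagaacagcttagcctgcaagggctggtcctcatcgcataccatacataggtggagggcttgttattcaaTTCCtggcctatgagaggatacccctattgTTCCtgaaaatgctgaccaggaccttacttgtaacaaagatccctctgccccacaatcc
This window held 2 ETS cores and that of Tie1 held 7. The Tie1 window, chr4:118489850-118490099 on the minus strand, follows RefSeq's start and overlaps the GENCODE gene, which ends at 118490061. Of 32851 mouse promoters of the same length, 93.5% held at least 1, 76.8% held 2 or more and 3.82% held 7 or more, so the short motif is common and its presence is a description only. Neither window held a hypoxia response core (ACGTG, as well as the variant GCGTG, searched on both strands), which 38.6% of promoters held. Only Tek and Tie1 had an entry in the promoter table.

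Unique molecular identifiers (UMIs) count captured transcripts. The normoxia library held 7630683 UMIs in 2223 cells and the hypoxia library 2685345 UMIs in 809 cells. After limits on detected genes (200 to 4000) and mitochondrial UMIs (at most 5%), 1348 normoxia and 689 hypoxia cells remained, with median depths of 3453 and 2224 UMIs. The mitochondrial limit alone was exceeded by 37.6% of normoxia and 13.2% of hypoxia cells, so the libraries differed in cell quality as well as in oxygen. The libraries shared 1 cell barcode. Cells fell into 28 clusters, of which 17 (1453 cells) were named EC-like from marker genes and 2 stayed unnamed. The members were kept out of the clustering genes and marker lists, so that no cluster was defined by them. A level is the UMIs of a gene per 1000000 UMIs of a class in 1 library (CPM). Neither condition was replicated beyond its 1 library. No p-value is therefore given, and every 95% interval (exact Poisson, conditional binomial or Clopper-Pearson) covers counting error only. Levels are compared between cells and libraries for the same gene, never between genes. Summed counts do not tell fewer expressing cells from less RNA per cell, and shares of cells are given where depth allows.

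The receptor and phosphatase transcripts came almost entirely from EC-like cells, Angpt1 from cells outside the endothelium, and Angpt2 from both. EC-like cells held 93.0% of the 2610 Tek UMIs in normoxia and 96.4% of the 1120 in hypoxia. For Tie1 they held 94.4% of 1388 and 96.6% of 893 UMIs, and for Ptprb 93.5% of 10923 and 97.6% of 4899. These shares rest partly on the makeup of the libraries, since the EC-like class took up 64.6% of kept cells in normoxia and 84.5% in hypoxia. Of 496 Angpt1 UMIs in normoxia, 75.0% lay in fibroblast-like, 15.3% in pericyte-like and 6.65% in EC-like cells, while the 44 Angpt1 UMIs of the hypoxia library lay 75.0% in fibroblast-like and 18.2% in EC-like cells. Of 131 Angpt2 UMIs in normoxia, 64.1% lay in EC-like, 17.6% in pericyte-like, 7.63% in fibroblast-like and 7.63% in myofibroblast-like cells. All 14 Angpt2 UMIs in hypoxia lay in EC-like cells.

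**Figure D1:**
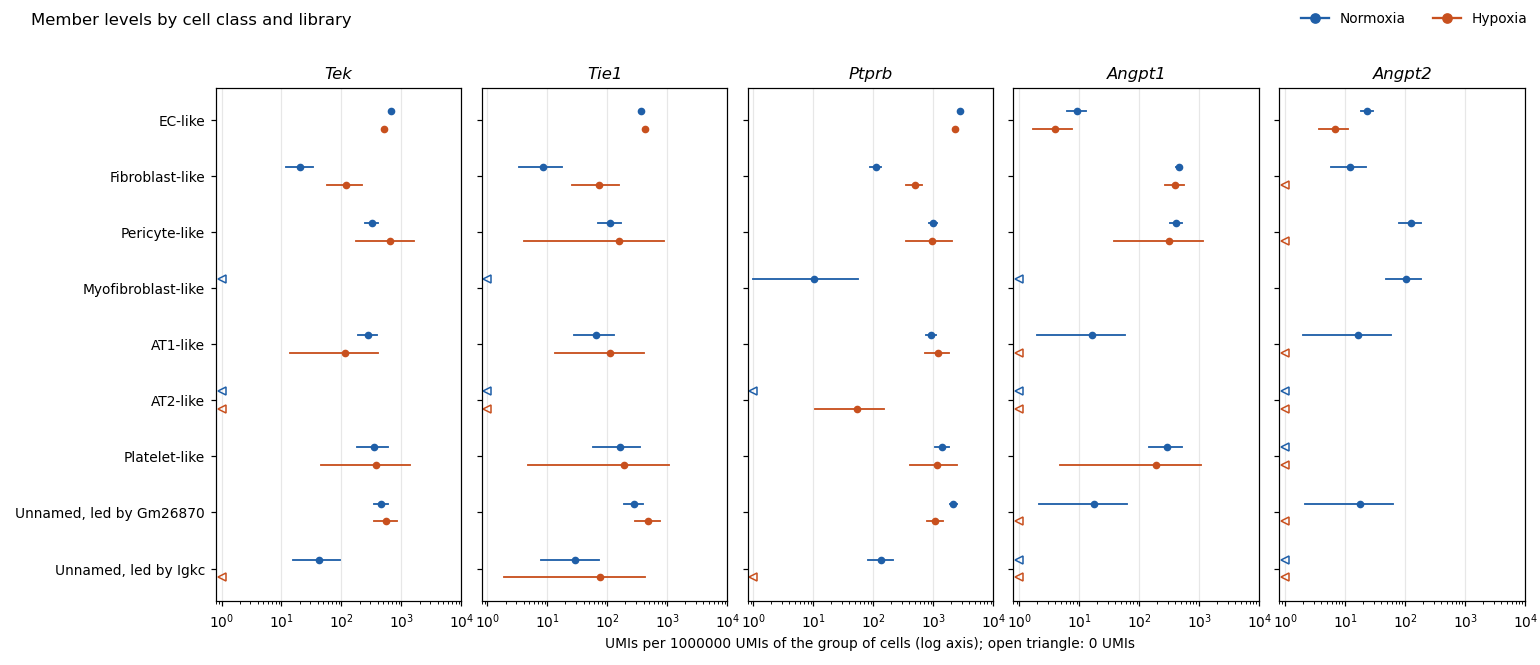
Level of each gene (UMIs per 1000000 UMIs of the class, log axis) by cell class in the normoxia and hypoxia libraries, with bars for exact Poisson 95% intervals and open triangles for 0 UMIs. Tek, Tie1 and Ptprb are high in EC-like cells, Angpt1 is at 452 and 406 in fibroblast-like and pericyte-like cells of the normoxia library, and Angpt2 is above 100 only in pericyte-like and myofibroblast-like cells there.

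In EC-like cells, Tek and Ptprb were lower and Tie1 was higher in the hypoxia than in the normoxia library. Tek stood at 674 CPM (2427 UMIs in 871 cells) and 522 CPM (1080 UMIs in 582 cells) in normoxia and hypoxia, a ratio of 0.774 (95% interval 0.720 to 0.832). Ptprb stood at 2835 CPM (10213 UMIs) and 2308 CPM (4779 UMIs), a ratio of 0.814 (0.786 to 0.843). Tie1 stood at 364 CPM (1310 UMIs) and 417 CPM (863 UMIs), a ratio of 1.15 (1.05 to 1.25). The receptor that binds the ligands and the phosphatase that dampens it were thus both lower, while the partner receptor was not. Angpt2 had the lowest ratio, with 23.3 CPM (84 UMIs in 71 cells) and 6.76 CPM (14 UMIs in 9 cells), a ratio of 0.290 (0.152 to 0.514). Angpt1 was near the bottom of the scale in EC-like cells, with 33 and 8 UMIs.

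Those ratios were set beside all genes. Of 8758 genes with at least 50 UMIs in EC-like cells, 849 (9.69%) had a ratio at or under 1/1.5 and 696 (7.95%) a ratio of 1.5 or more, and the median ratio was 1.02. Angpt2 was the only member past 1.5-fold, among the 4 that met the minimum, with none past it upwards. The shifts of Tek, Tie1 and Ptprb lay within the range held by most genes. Scaling by the median ratio over genes moved the EC-like ratios by 0.06 on the log2 scale and gave 1020 genes lower against 546 higher. The split was thus 55.0% lower with total UMIs and 65.1% lower with median scaling.

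Several measures of cell state were set beside the same contrast, and not all of them differed. The 6 pan-endothelial genes Cdh5, Pecam1, Cldn5, Egfl7, Esam and Ramp2 summed to 11930 CPM in normoxia and 11960 CPM in hypoxia in EC-like cells. Within subtypes they summed to 12010 and 10830 CPM in general capillary-like, 15490 and 18530 CPM in aerocyte-like and 7183 and 9633 CPM in venous-like cells. Immediate-early genes, which respond to dissociation and stress, summed to 22970 CPM against 8519 CPM, and 15 of the 16 listed were lower in hypoxia. Without the EC-like clusters led by such genes the Tek ratio was 0.859 (from 0.774) and the Ptprb ratio 0.905 (from 0.814), both still under 1. The median mitochondrial share was 2.62% against 1.14% and the median depth 3859 against 2700 UMIs. In EC-like cells with at least 2000 UMIs, a limit chosen after the data were seen, the ratios were 0.777 for Tek, 1.17 for Tie1, 0.832 for Ptprb and 0.306 for Angpt2. With a mitochondrial limit of 10%, and with no such limit, they were 0.756 and 0.767 for Tek, 1.15 and 1.19 for Tie1, 0.824 and 0.837 for Ptprb and 0.281 and 0.277 for Angpt2.

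**Figure D2:**
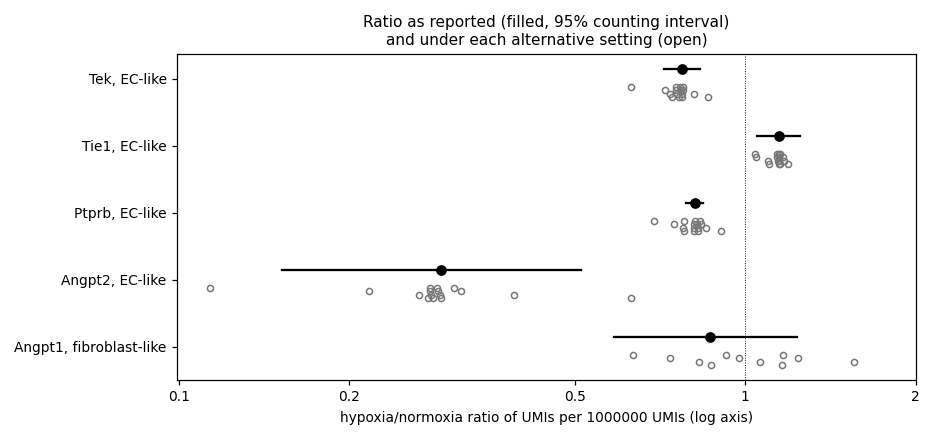
Hypoxia/normoxia ratio of each gene (log axis) as reported, in black with its 95% counting interval, and under each alternative setting, in open grey points. All points for Tek and Ptprb lie under 1 and all for Tie1 above it, while those for Angpt1 in fibroblast-like cells lie on both sides.

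Tek and Ptprb split the blood capillary endothelium into 2 kinds, while Tie1 was found in both. Aerocytes are the capillary ECs of gas exchange, marked by Car4, Ednrb and Apln, and general capillary cells are their Aplnr-marked counterpart. Aerocyte-like cells (124 normoxia and 62 hypoxia cells in 2 clusters) held Tek at 58.1 CPM (41 UMIs) and 58.9 CPM (20 UMIs) in the respective libraries. All other EC-like cells together held Tek at 824 and 612 CPM, which is 14.2-fold (10.4 to 19.8) and 10.4-fold (6.70 to 17.1) above aerocyte-like cells. Ptprb stood at 220 CPM (155 UMIs) and 144 CPM (49 UMIs) in aerocyte-like cells, against 3472 and 2732 CPM in the others, a 15.8-fold (13.5 to 18.7) and 19.0-fold (14.3 to 25.7) difference. Tie1 differed far less, with 246 CPM (174 UMIs) and 256 CPM (87 UMIs) in aerocyte-like cells against 392 and 448 CPM, or 1.59-fold (1.36 to 1.88) and 1.75-fold (1.40 to 2.21). Aerocyte-like cells had median depths of 5994 and 4846 UMIs against 3718 and 2612 UMIs in the others. Of the 2 aerocyte-like clusters one was shallow (55 cells, median 1080 UMIs) and held Tek at 49.8 CPM (2 UMIs) in normoxia, and the deeper one held it at 58.6 CPM.

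The size of this gap depended on how aerocyte-like cells were drawn, and its direction did not. When single cells were taken by 2 or more aerocyte markers against none, without clusters, Tek was 3.72-fold and 3.45-fold, Ptprb 4.37-fold and 3.97-fold, and Tie1 1.47-fold and 1.503-fold higher in cells without the markers, in normoxia and hypoxia. By clusters, levels at least 5-fold lower in aerocyte-like cells were found for 311 of 7593 genes (4.10%) in normoxia and 262 of 5936 (4.41%) in hypoxia, among those that met the minimum. Ordered from the lowest ratio, Ptprb was number 138 and Tek number 156 in normoxia, and Ptprb number 71 and Tek number 141 in hypoxia, against 1392 and 1054 for Tie1. Tek and Ptprb thus lay among the few percent of genes with the lowest aerocyte-like ratio in both libraries, and Tie1 did not. Genes higher in aerocyte-like cells were not ranked. Among clusters with at least 10 normoxia cells, Tek ranged in that library from 520 to 1157 CPM over 11 blood EC-like clusters outside the aerocyte-like ones and from 49.8 to 58.6 CPM in the 2 aerocyte-like clusters. Ptprb ranged from 2353 to 4928 CPM in the former and from 194 to 647 CPM in the latter, whereas for Tie1 the aerocyte-like range (245 to 274 CPM) lay inside that of the others (178 to 626 CPM). Smaller groups lay outside these ranges: the dividing cluster had 1 Tek UMI (80.9 CPM) and Ptprb at 1375 CPM in its 2 normoxia cells. The cluster that also held fibroblast transcripts (Tie1 at 178 CPM in 25 normoxia cells), the interferon cluster (496 CPM in 15) and the dividing cluster are left out of the plot of levels by subtype.

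**Figure D3:**
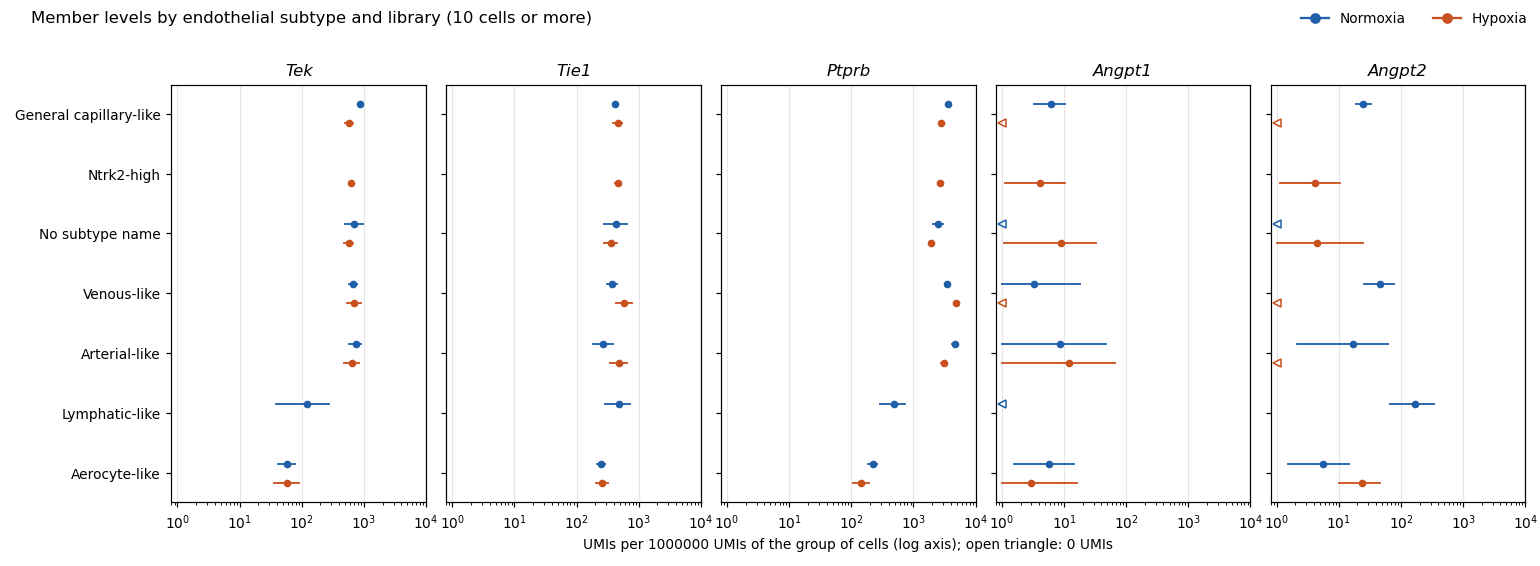
Level of each gene (UMIs per 1000000 UMIs of the subtype, log axis) by EC subtype and library, with exact Poisson 95% intervals and open triangles for 0 UMIs, for groups of 10 or more cells. Tek and Ptprb fall by about an order of magnitude in aerocyte-like cells, Tie1 lies between 246 and 587 in the 7 subtypes drawn, and Angpt2 is at 0 in several hypoxia groups.

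The same split was seen cell by cell once each cell was thinned to 1000 UMIs. Tek had a UMI in 3.57% of aerocyte-like cells in normoxia and 4.17% in hypoxia, against 52.9% and 43.3% of other blood EC-like cells. Ptprb had one in 18.8% and 12.5% of aerocyte-like cells against 94.1% and 84.9%, and Tie1 in 25.9% and 20.8% against 33.9% and 34.4%. Before thinning the shares in aerocyte-like cells were 18.5% and 22.6% for Tek, 39.5% and 20.97% for Ptprb and 67.7% and 58.1% for Tie1. In a cluster of 22 cells led by Igkc with leukocyte transcripts, which should lack all 3 genes and had a median of 4910 UMIs, the thinned shares were 4.76% for Tek and Tie1 and 9.52% for Ptprb. The background share of Tek and Tie1 rests on 1 of 21 cells (0.121% to 23.8%). This is too wide to place the aerocyte-like shares of Tek above or below it. For Tie1 the normoxia share of 25.9% lay above that interval and the hypoxia share of 20.8% inside it. Summed over normoxia cells, Tie1 was 28.5 CPM (7.75 to 72.9) in the Igkc cluster and 246 CPM (211 to 286) in aerocyte-like cells. Tek was 42.7 CPM (15.7 to 92.9) and 58.1 CPM (41.7 to 78.8) in the same cells. Of the 6 Tek UMIs in the Igkc cluster, 5 lay in 1 cell. Tek was 8.58 CPM (2.79 to 20.02) in the Pdgfra-led fibroblast-like cluster. In myofibroblast-like cells it was 0 of 98730 UMIs (0 to 37.4 CPM). Both intervals lay below that of aerocyte-like cells. Tek was higher, at 85.8 and 74.75 CPM, in the Mfap4-led fibroblast-like and Pdgfrb-led pericyte-like clusters. Those held pan-endothelial genes at 1793 and 1154 CPM, against 200.8 CPM in the Pdgfra-led one. Before thinning, 9.09% of the Igkc cells had a Tek UMI and 13.6% a Tie1 UMI. None of the 3 genes had a UMI in 57.1% of 112 aerocyte-like cells in normoxia and 66.7% of 48 in hypoxia, against 3.19% of 690 and 6.70% of 418 other blood EC-like cells. All 3 genes together were seen in 17.7% and 12.4% of the other blood EC-like cells and in no aerocyte-like cell.

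**Figure D4:**
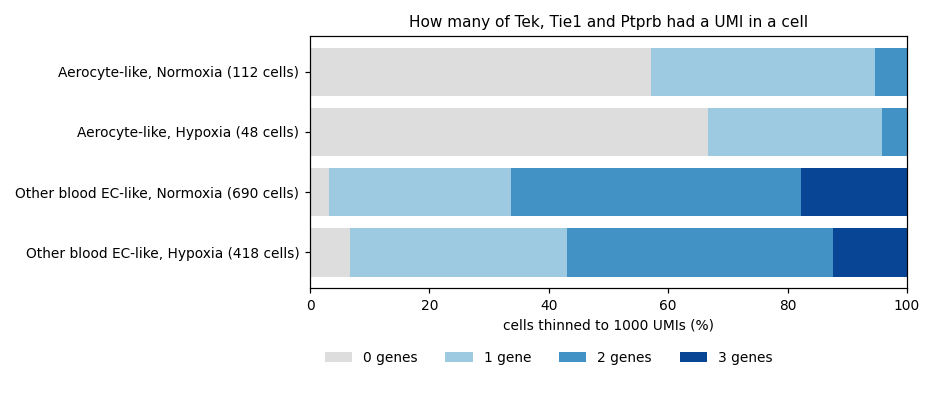
Share of cells (%), after thinning each to 1000 UMIs, in which 0, 1, 2 or 3 of Tek, Tie1 and Ptprb had a UMI, for aerocyte-like and other blood EC-like cells of each library. Of aerocyte-like cells, 57.1% and 66.7% had none, against 3.19% and 6.70% of the others.

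The difference between libraries was also read within each EC subtype. In general capillary-like cells (575 normoxia and 115 hypoxia cells), Tek stood at 880 and 582 CPM, a ratio of 0.662 (0.564 to 0.772), and Ptprb at 3553 and 2801 CPM, a ratio of 0.788 (0.734 to 0.846). Tie1 there stood at 414 and 465 CPM, with an interval that held 1 (0.934 to 1.34). Different clusters held most of this class in each library. Within the cluster that gave 76 of the 115 hypoxia cells (and 56 of normoxia), Tek was 1157 and 606 CPM, a ratio of 0.524 (0.393 to 0.697), and Ptprb 4511 and 2886 CPM, a ratio of 0.640 (0.559 to 0.733). This cluster was led by Gm26917, Gm12758 and Kcnq1ot1, with no general capillary marker among its 10 leading genes. Its median depths were 1550 and 1772 UMIs, against 3608 and 2140 UMIs in general capillary-like cells as a whole. A second cluster held 135 normoxia and 21 hypoxia cells and was led by immediate-early genes, with a Tek ratio of 0.696 (0.523 to 0.911) and a Ptprb ratio of 0.673 (0.583 to 0.774). Immediate-early genes summed to 25180 and 17280 CPM in general capillary-like cells, with 13 of 16 lower in hypoxia, and their part was not tested within clusters.

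In aerocyte-like cells, where little Tek was found in either library, the Tek ratio was 1.01 (0.563 to 1.77) and the Tie1 ratio 1.04 (0.794 to 1.35). Ptprb was lower there in hypoxia too, at a ratio of 0.657 (0.466 to 0.911). In venous-like cells (53 and 20 cells, marked by Slc6a2 and Vwf), Tek was 671 and 699 CPM, a ratio of 1.04 (0.771 to 1.39). Tie1 was higher in these cells in hypoxia, with 375 and 587 CPM and a ratio of 1.56 (1.10 to 2.19), and Ptprb was higher as well, with 3480 and 4907 CPM and a ratio of 1.41 (1.26 to 1.58). Arterial-like cells (20 and 16 cells, marked by Gja5 and Bmx) held Tek at 734 and 641 CPM (ratio 0.872, 0.608 to 1.24), Tie1 at 268 and 486 CPM (1.82, 1.11 to 2.99) and Ptprb at 4605 and 3120 CPM (0.678, 0.582 to 0.787). Ptprb thus had a ratio under 1 in general capillary-like, aerocyte-like and arterial-like cells and above 1 in venous-like cells. Whether subtypes differ in their ratios was not tested, since there is 1 library per condition. Of 5 blood EC-like clusters outside the aerocyte-like ones with at least 10 cells of each library, Tek was lower in hypoxia in 4 and higher in 1, Ptprb likewise, and Tie1 was lower in 2 and higher in 3.

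The Ntrk2-high cluster, led by Ntrk2, Mal, Cdk19 and MHC class II genes, was almost entirely of the hypoxia library, with 179 hypoxia and 2 normoxia cells, so its library and its identity cannot be told apart. It held Tek at 631 CPM (616 UMIs), Tie1 at 459 CPM (448 UMIs) and Ptprb at 2710 CPM (2644 UMIs), beside 582, 465 and 2801 CPM in general capillary-like cells of the same library. Leaving this cluster out changed the EC-like ratios to 0.629 for Tek, 0.689 for Ptprb and 1.04 for Tie1 (0.931 to 1.16). The cluster held 975732 of the 2070989 EC-like UMIs in hypoxia. Leaving it out thus also raised the weight of the aerocyte-like cells (339768 UMIs) in that library. How much of the change came from that weight was not tested. EC-like cells with no subtype name (44 and 178 cells of low depth) held Tek at 700 and 568 CPM, Tie1 at 435 and 353 CPM and Ptprb at 2480 and 1931 CPM. They included a cluster of 8 normoxia and 100 hypoxia cells that also had Ntrk2, Cdk19 and MHC class II genes among its leading genes. In hypoxia that cluster held Tek at 775 and Tie1 at 504 CPM, against 364 and 204 CPM in the remaining unnamed cells. It was still included when the Ntrk2-high cluster was left out, and its part in the Tie1 ratio was not tested. Lymphatic-like cells, 11 in normoxia, held 5 Tek UMIs (119.5 CPM), 20 Tie1 UMIs (478 CPM) and 20 Ptprb UMIs (478 CPM), so Tek and Ptprb were low and Tie1 was not. The interval for Tek there ran from 38.8 to 279 CPM.

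Angpt2 was sparse in the endothelium of both libraries. In normoxia it stood at 24.96 CPM in general capillary-like cells (53 UMIs in 46 cells), 46.1 CPM in venous-like cells (14 UMIs in 11 cells), 167 CPM in lymphatic-like cells (7 UMIs in 4 cells) and 5.67 CPM in aerocyte-like cells (4 UMIs in 4 cells). In hypoxia it was 0 of 307412 UMIs in general capillary-like cells, where 3 UMIs would be 9.76 CPM. In venous-like cells it was 0 of 88655 UMIs, where 3 UMIs would be 33.8 CPM. In the deep Ntrk2-high cells only 4 UMIs in 2 of 179 cells were found (4.10 CPM). Aerocyte-like cells of the hypoxia library held 8 UMIs in 5 of 62 cells (23.6 CPM), more than the 6 UMIs in all other EC-like cells. The Angpt2 ratio was 4.16 (1.11 to 18.9) in aerocyte-like cells and 0.126 (0.0447 to 0.285) in the other EC-like cells, from 80 and 6 UMIs. All 8 UMIs lay in the deeper of the 2 aerocyte-like clusters, with median depths of 6924 UMIs in normoxia and 8660 UMIs in hypoxia. When aerocyte-like cells were drawn by the marker gate, the rise was smaller, from 7.17 CPM (6 UMIs) to 16.7 CPM (8 UMIs). Within clusters that held at least 10 cells of each library, 7 in number with both aerocyte-like ones among them, the Angpt2 ratio over EC-like cells was 0.630 (0.281 to 1.41). In the 5 blood EC-like clusters of this size outside the aerocyte-like ones, Angpt2 was lower in hypoxia in 4, with 16, 14, 2 and 1 UMIs in normoxia and 0 in hypoxia, and at 0 in both libraries in 1. At 1000 UMIs a cell, Angpt2 was seen in 1.85% of EC-like cells in normoxia and 0.214% in hypoxia, near the level of single UMIs, against 8.15% and 1.55% before thinning and 0 of 22 cells in the Igkc cluster.

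Angpt2 was not restricted to ECs. Pericyte-like cells, the mural cells around capillaries, held it at 123 CPM in normoxia (23 UMIs), of which 21 UMIs lay in 12 of the 22 cells of the cluster led by Pdgfrb (174 CPM). Myofibroblast-like cells, marked by Hhip and Aspn, held 10 UMIs in 8 of 16 cells (101.3 CPM). Per 1000 pan-endothelial UMIs in the same cells, Angpt2 came to 1.955 in EC-like, 27.9 in pericyte-like and 1000 in myofibroblast-like cells of the normoxia library. The mural and myofibroblast UMIs thus stood far above the Angpt2 that the endothelial transcripts in those cells would bring at the ratio of EC-like cells. The hypoxia library had 4 pericyte-like and no myofibroblast-like cells, so these sources could not be compared between libraries.

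Angpt1, the activating ligand, was found mostly in fibroblast-like and pericyte-like cells. In fibroblast-like cells it stood at 452 CPM in normoxia (372 UMIs in 107 of 189 cells) and 391 CPM in hypoxia (33 UMIs in 15 of 35 cells), a ratio of 0.865 (0.587 to 1.24). The interval held 1, and the direction was not settled: scaling by the median ratio over genes, which shifted this class by 0.45 on the log2 scale, gave 0.634 (0.430 to 0.906), and the single fibroblast-like cluster with at least 10 cells of each library gave 1.56 (0.904 to 2.66). Immediate-early genes summed to 20720 and 2951 CPM in this class, with 15 of 16 lower in hypoxia, and their part was not tested. Within the fibroblasts of normoxia, Angpt1 was 520 CPM in the cluster led by Pdgfra, Itga8 and Npnt (303 UMIs in 77 of 83 cells), 292 CPM in the shallow cluster led by Mfap4 (34 UMIs in 20 of 92 cells) and 284 CPM in the cluster led by Dcn and Pi16 (35 UMIs in 10 of 14 cells). The Npnt cluster thus carried most of the transcript, and it also held 582724 of the 822666 UMIs of fibroblast-like cells in normoxia. Its median depth was 6809 UMIs against 934 UMIs in the Mfap4 cluster, so their shares of cells with a UMI are not comparable. The Npnt cluster held only 3 hypoxia cells. The shallow Mfap4 cluster held 31 of the 35 hypoxia cells and 92 of the 189 normoxia cells, so the class ratio compares unlike mixes of fibroblasts. In myofibroblast-like cells Angpt1 was 0 of 98730 UMIs, where 3 UMIs would be 30.4 CPM, so of these mesenchymal classes the myofibroblast-like cells had Angpt2 and no detected Angpt1.

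Pericyte-like cells held Angpt1 at 406 CPM in normoxia (95% interval 320 to 509, 76 UMIs in 26 of 45 cells), within the range of fibroblast-like clusters. The level was 565 CPM in the cluster led by Pdgfrb (68 UMIs in 19 of 22 cells) and 120 CPM in the cluster led by Spp1 (8 UMIs in 7 of 23 cells). The latter cluster also held pan-endothelial transcripts at 10290 CPM, close to the 11930 CPM of EC-like cells, against 1154 CPM in the former, so its droplets held EC transcripts beside those of pericytes. The cluster led by Pdgfrb in turn had 6 fibroblast markers in at least 25% of its cells. How much of its Angpt1 came with fibroblast transcripts was not tested. In hypoxia 2 Angpt1 UMIs were found in 4 pericyte-like cells. Platelet-like droplets, led by Pf4 and Ppbp, held 11 Angpt1 UMIs in 5 of 18 cells in normoxia (292 CPM, 146 to 523). Angpt1 is known to be carried by platelets. In EC-like cells, 14 of the 33 Angpt1 UMIs in normoxia lay in a cluster of 25 cells that also held fibroblast transcripts (75.7 CPM), and general capillary-like cells held 13 UMIs (6.12 CPM).

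Outside the EC-like class, the receptor transcripts followed the endothelial transcripts around them. The cells there included the unnamed cluster led by Gm26870, with pan-endothelial genes at 6986 CPM in normoxia and 7755 CPM in hypoxia. That cluster gave 800 of their 2673 pan-endothelial UMIs in normoxia and 308 of 564 in hypoxia. The hypoxia figures for all other cells thus rest largely on it. Per 1000 pan-endothelial UMIs, Tek came to 56.5 in EC-like cells and 68.5 in all other cells in normoxia, and to 43.6 and 70.9 in hypoxia. Ptprb came to 238 and 266 in normoxia and to 193 and 213 in hypoxia, and Tie1 to 30.5 and 29.2 in normoxia and to 34.8 and 53.2 in hypoxia. In EC-like cells other than aerocyte-like the figures were 74.5 and 57.4 for Tek, 314 and 256 for Ptprb, and 35.5 and 42.0 for Tie1. Fibroblast-like cells showed higher receptor levels in hypoxia, with Tek at 20.7 and 119 CPM and Ptprb at 109 and 486 CPM, beside pan-endothelial genes at 416 and 1920 CPM. Tek per 1000 pan-endothelial UMIs was 49.7 and 61.7 in these cells. Pericyte-like cells of normoxia held Tek at 321 CPM, or 72.7 per 1000 pan-endothelial UMIs (55.0 to 94.6), and AT1-like cells at 275 CPM, or 92.6 (63.2 to 132). These values are no higher, relative to EC transcripts, than the EC-like cells outside the aerocyte-like clusters within their intervals, and no separate source of Tek was detectable in pericyte-like cells at this depth. Angpt1 behaved otherwise, at 0.768 in EC-like, 92.1 in pericyte-like and 1088 in fibroblast-like cells of normoxia.

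Other genes of the pathway were read in EC-like cells from a list of 51. The minimum of 50 UMIs was met by 36, of which 2 (5.56%) were at or under 1/1.5 and 1 (2.78%) at or over 1.5, with a median ratio of 0.967 beside 1.02 for all genes. These shares lie below those of all genes. None of the 3 other ligands and binders (Angpt4, Svep1 and Lect2) and none of the 5 angiopoietin-like genes met the minimum. Among integrins, junction partners and sheddases, 7 of 8 met it and none was past 1.5-fold. The highest ratios there were 1.15 for Itgb1 (728 and 840 CPM), an integrin chain that can bind angiopoietins, 1.09 for Cdh5, the junction cadherin that VE-PTP also serves, and 1.09 for Itga5. The lowest were 0.723 for Itgav, 0.959 for Adam17 and 0.976 for Mmp14, and the intervals of all 3 held 1. The 5 other receptor phosphatases had a median of 0.839 and none past 1.5-fold, from 0.667 for Ptpre and 0.777 for Ptprk to 1.38 for Ptprm (177 and 243 CPM), so Ptprm stood higher where Ptprb stood lower.

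Of 16 adaptors and kinases, 12 met the minimum. Grb14, an adaptor of receptor kinases, was lower in hypoxia at 59.4 and 23.7 CPM, a ratio of 0.398 (0.286 to 0.546). Nos3, the endothelial nitric oxide synthase that acts downstream of Akt, was higher at 34.1 and 62.3 CPM, a ratio of 1.82 (1.41 to 2.36). Ptpn11, a phosphatase that docks on activated receptors, had a ratio of 1.29, and the next lowest after Grb14 were Pik3ca (0.757) and Akt2 (0.764). Of 14 transcription factors tied to the system, 12 met the minimum. Tal1, a haematopoietic and endothelial factor, was the only member of that group past 1.5-fold, at 74.1 and 47.8 CPM (0.645, 0.507 to 0.815). Foxo1, the factor that Tie2 signalling restrains through Akt and that drives Angpt2, had a ratio of 0.677 (0.561 to 0.814), and Epas1, which codes for HIF2α, 0.711 (0.686 to 0.736). The highest were Foxo3 (1.21), Erg (1.19) and Foxo4 (1.17), each with an interval that held 1.

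**Figure D5:**
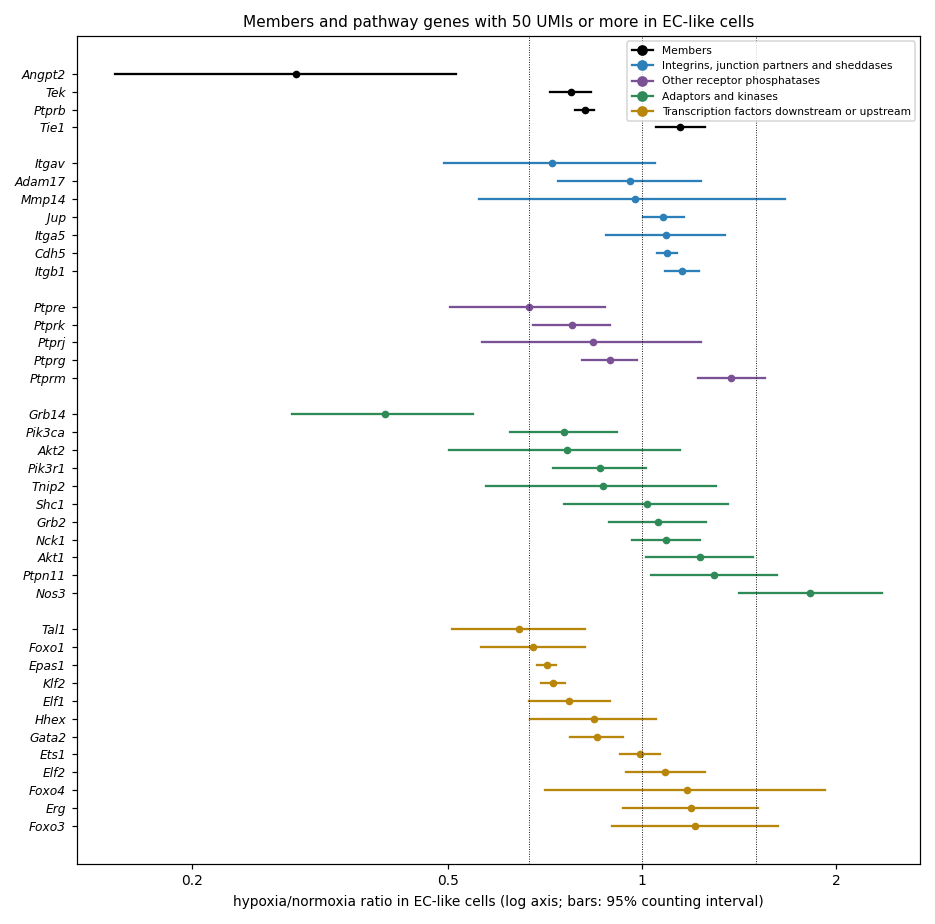
Hypoxia/normoxia ratio in EC-like cells (log axis) with 95% counting intervals for the 4 members and 35 of the 36 pathway genes that met the minimum of 50 UMIs, grouped by role; dotted lines mark 1/1.5, 1 and 1.5. Angpt2, Grb14 and Tal1 lie past the lower line and Nos3 past the upper line.

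The pathway list was also read between aerocyte-like and other EC-like cells. In normoxia 34 of the 51 met the minimum, with 2 (5.88%) at least 5-fold lower in aerocyte-like cells, beside 4.10% of all genes, and 2 (5.88%) at least 5-fold higher, beside 1.36%. Itga5 stood at 4.25 CPM against 78.4 CPM and Nos3 at 4.25 CPM against 41.4 CPM, each on 3 UMIs in aerocyte-like cells. Grb14 was 9.83-fold (7.28 to 13.4) and Ptpre 8.67-fold (6.36 to 11.9) higher there. In hypoxia 29 met the minimum, with Itga5 (0 against 144 UMIs), Nos3 (ratio 0.163) and Foxo1 (ratio 0.0637, on 2 UMIs) at least 5-fold lower (10.3%, beside 4.41% of all genes) and 0 at least 5-fold higher, beside 1.40%. Grb14, with 49 UMIs in EC-like cells of hypoxia, missed the minimum there and was not compared. These shares rest on at most 3 genes each, so nothing is read from them about the list as a whole.

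The genes whose levels ran closest to each member were listed over the 22 clusters of at least 20 cells, from 8043 genes, by Pearson's r of log2(CPM + 10). These values describe clusters that share libraries, depth and endothelial content. Ptprb was the gene closest to Tek and Tek the gene closest to Ptprb (r = 0.983), followed by Cd93 (0.973) and Acer2 (0.973) for Tek and by Acer2 (0.976) and Tmem2 (0.974) for Ptprb. Tie1 ran closest to the general endothelial surface genes Podxl (0.971), Calcrl (0.960) and Pecam1 (0.956). Angpt1 ran closest to Tnfrsf19 (0.967), Enpep (0.932) and Ism1 (0.922). Angpt2 had no close partner, with Spry4 (0.779), Adk (0.768) and Zfp948 (0.762) at the top.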

How the data were processed

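Dissociated lung cells of 2 libraries, 1 from normoxia and 1 from hypoxia, were captured with the 10x Chromium 3' kit. The authors aligned reads to mm10 and counted UMIs with Cell Ranger. The deposited values are unnormalized whole UMI counts of each gene in each called cell. The file header names Cell Ranger 6.1.2, and the paper's text other versions. Each library was 1 group, named from its treatment label. Depth per library is given with the results.

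Kept cells had 200 to 4000 detected genes and no more than 5% mitochondrial UMIs (the study's methods name 6000 genes, used as an alternative). The upper limit on genes was the only step against doublets, since Scrublet, tried as an alternative, called 3 of 1348 normoxia cells (0.223%) and 0 of 689 hypoxia cells. The log of counts per 10000 was clustered by the Leiden method (resolution 2) on 30 principal components and 15 neighbours. These came from a joint set of 2000 variable genes ranked across both libraries, with the members taken out. Batches were not corrected. The tools were scanpy 1.11.5, anndata 0.12.19, igraph 0.11.9, pandas 2.3.3, scipy 1.17.1, numpy 2.4.6, matplotlib 3.10.9 and python 3.11.15. A class or subtype name needed at least 3 markers of its list in 25% of the cluster's cells, and was withheld where another list led its 10 leading genes. The names are rebuilt and need not match the study's clusters. The rules on general capillary names were tightened after the data were seen. The cells of the Igkc cluster gave the background share.

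Levels are summed UMIs per 1000000, and ratios carry exact conditional binomial intervals at 95%. Beside a level of 0 stands the level at 3 UMIs. No p-value was computed, because each condition has 1 library. Named are the members, the 3 highest and 3 lowest ratios per role of the pathway list and the 3 genes closest to each member. Genes 5-fold apart between EC subtypes were named after their values were seen. In the pathway list, 1 gene that is counted is not reported here by name. The members and lists were chosen with earlier results of these data known. The ratio and its interval were tested on simulated Poisson counts only. These held no spread between cells or libraries, so the test says nothing about such spread. Positions come from GENCODE for GRCm38 and upstream sequences from RefSeq. The published data set that the study merged with its own was not used here.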

Additional observations from a re-analysis of the deposited data

Results flagged for a closer look

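Angpt2 moved in opposite directions within the endothelium. Its hypoxia/normoxia ratio was 4.16 in aerocyte-like cells (4 and 8 UMIs) and 0.126 in the other EC-like cells (80 and 6 UMIs), each with a counting interval on its own side of 1. The difference between the subtypes was not tested, since each condition has 1 library, and the aerocyte-like value rests on 8 UMIs in 5 cells. By the aerocyte marker gate Angpt2 was 7.17 CPM (6 UMIs) in normoxia and 16.7 CPM (8 UMIs) in hypoxia in aerocyte-like cells. In cells without the markers it was 28.3 CPM (52 UMIs) and 5.13 CPM (5 UMIs). The directions were the same, with a smaller rise in aerocyte-like cells, and no interval was computed for it.

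Cells removed by the limits also held the members. Among cells with more than 5% mitochondrial UMIs (835 normoxia and 107 hypoxia cells), the hypoxia/normoxia ratio was 1.98 for Tie1 (1.37 to 2.79), 1.48 for Ptprb (1.30 to 1.67) and 2.09 for Angpt1 (1.17 to 3.53). Among all kept cells, likewise of every class, the ratio was 1.45 for Tie1 (1.33 to 1.58) and 1.01 for Ptprb (0.977 to 1.05). For Angpt1 it was 0.2 (0.1434 to 0.2725) in all kept cells. The Ptprb ratio thus lay above 1 in the removed cells, while its interval held 1 in all kept cells. It was under 1 in the kept EC-like cells, which are 1 class only and not the matching set. These removed cells were not split by class, so their makeup may differ between libraries as well. Among cells with more than 4000 detected genes (46 and 13 cells), the Tie1 ratio was 3.51 (2.47 to 4.97), from 76 and 62 UMIs.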

How the results depend on the processing

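No paired analysis was possible because neither condition has a replicate, and no replicate could be left out. The EC-like ratios were recomputed under 16 alternatives each. Tek ranged from 0.629 to 0.859 and Ptprb from 0.689 to 0.905, all under 1, Tie1 from 1.04 to 1.19, all above 1, and Angpt2 from 0.113 to 0.630, all under 1. The Tie1 interval held 1 within clusters of at least 10 cells of each library (1.10, 0.955 to 1.27). It also held 1 without the Ntrk2-high cluster (1.04, 0.931 to 1.16). Values left the counting interval of the reported ratio as follows. For Ptprb they were 0.776 with at most 6000 genes, 0.853 with each library clustered alone, 0.781 scaled by the median ratio and 0.748 as a mean over cells, where Tie1 was 1.04. Angpt2 was 0.630 within shared clusters, with an interval that held 1 (0.281 to 1.41). Further settings were chosen after seeing the data. Without aerocyte-like and lymphatic-like cells Ptprb was 0.779 and Angpt2 0.113. Without the Ntrk2-high cluster Tek was 0.629, Tie1 1.04 and Ptprb 0.689. Without clusters led by immediate-early genes Tek was 0.859 and Ptprb 0.905. By an aerocyte marker gate the gap to other EC-like cells was 3.72 and 3.45 for Tek and 4.37 and 3.97 for Ptprb. The cause of these shifts was not tested.

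For Angpt1 in fibroblast-like cells the ratio ran from 0.634 to 1.56 over 11 alternatives, with 1.24 by a marker gate and 1.56 within the shared cluster. Its level in pericyte-like cells of normoxia ran from 355 to 565 CPM over 10 alternatives, with 516 CPM at resolution 1 and 565 CPM in the Pdgfrb-led cluster alone. Genes at least 1.5-fold lower in EC-like cells numbered 1333 with a minimum of 20 UMIs and 530 with 100. Shares of EC-like cells moved with the thinning depth: at 500 and 2000 UMIs Tek was 29.6% and 67.7% in normoxia and 22.2% and 60.4% in hypoxia, Tie1 15.6% and 52.0% in normoxia and 19.4% and 53.9% in hypoxia, Ptprb 68.0% and 88.2% in normoxia and 57.6% and 85.4% in hypoxia, and Angpt2 1.03% and 5.17% in normoxia. Depth limits what the 14 Angpt2 UMIs, the 44 Angpt1 UMIs and the 4 pericyte-like cells of the hypoxia library can show.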
